A study of Mus musculus with 20 samples.

Results

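The genes of cholesterol and fatty acid synthesis were followed through mouse CD4 T cells that were regulatory, rested in culture, or taken straight from the animal. They were chosen by name, as a list of 36 gene names of the sterol and fatty acid pathways, of which 34 were rows among the 22068 gene symbols of the count table. The other 2 names, Msmo1 and Sc5dl, are alternative names of Sc4mol and Sc5d, which were rows. Of the 34 members, 31 passed the filter on low counts and were among the 13309 genes tested. The other 3 were not tested. Me1, the malic enzyme that supplies NADPH, and the desaturase Fads2 had 0 to 6 counts per library. Hmgcs1, which makes HMG-CoA, was listed at 0 counts in all 20 libraries, and since the annotation behind the counts is unknown, that listing is not read as absence of its RNA.

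RNA was sequenced from spleen and lymph node cells of C57BL/6 mice aged 8 to 12 weeks, in 5 groups of 4 libraries that the labels call biological replicates. Regulatory T cells (Treg) were sorted by a green fluorescent reporter for Foxp3 and lysed at once, with no gate on CD44 or CD5 given. Naive cells were negative for that reporter and low in CD44, and came from the 15% with the highest (CD5hi) or the 15% with the lowest (CD5lo) surface CD5, an inhibitor of T cell receptor signalling whose level follows the strength of contact with self-peptide. Rested CD5hi and rested CD5lo cells were kept dissociated for 22 h with interleukin 7 at 10 ng/mL before lysis, whereas fresh CD5hi and fresh CD5lo cells were lysed directly. Removal of self-peptide contact, the culture itself and interleukin 7 therefore differ together between rested and fresh cells and cannot be told apart. All groups shared the sort for TCRb and CD4 and against CD8, CD69 and surface markers of B, NK, dendritic, myeloid and granulocytic cells.

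Total counts ran from 38211406 to 64477566 per library. The sorts carried their markers, with Foxp3 at 722 ± 38 CPM (counts scaled to a common library total) in Treg and group means of 22.3 to 28.6 CPM in naive cells (SD, n = 4 each), and Cd5 at 461 ± 19.3 CPM in rested CD5hi against 94.5 ± 6.49 in rested CD5lo cells, and at 982 ± 61.3 in fresh CD5hi against 148 ± 9.83 in fresh CD5lo cells. Although the labels describe pooled sexes, all 8 fresh libraries carried Y-linked reads, and in the Treg and in each rested group 3 libraries carried Xist reads and only replicate 3 carried Y-linked reads. Sex thus differed between the groups in every comparison of Treg or rested with fresh cells, and calls that ended with the libraries with Y-linked reads alone are named with their result. That fit keeps only 1 Treg library and 1 of each rested group. Sex and the smaller number of libraries therefore cannot be told apart as reasons for a lost call. A term for sex rests on replicate 3 against the other replicates of the Treg and rested groups. Sex and any other trait of replicate 3 therefore cannot be told apart in calls made or lost with that term. Markers of myeloid cells summed to 7.03 to 9.19 CPM in Treg, 3.26 to 5.96 in rested and 11.5 to 16.2 in fresh libraries. Those of red cells summed to 0.409 to 15.2 CPM in Treg, 0 to 8.62 in rested and 15.4 to 54.0 in fresh libraries. Those of B cells ran the other way, at 22.8 to 24.7 CPM in Treg, 4.43 to 9.69 in rested and 3.26 to 5.07 in fresh libraries, with 3 of 4 called higher in Treg and in rested cells. Markers of Treg summed to 146 to 175 CPM in rested and 27.6 to 40.1 in fresh libraries. Of these 4 markers, 3 were called higher and 1 lower in rested CD5hi cells, and 2 higher in rested CD5lo cells. Il2ra alone held 80.6 to 113 CPM in rested and 1.22 to 3.50 in fresh libraries. Ikzf2 was the one that fell, at 4.2 to 5.9 CPM in rested and 9.0 to 10.2 in fresh CD5hi libraries. All 5 markers of CD4 T cells were called lower in rested cells. They summed to 2327 to 2521 CPM, against 3124 to 3831 in fresh libraries. Markers of CD8 T cells summed to 28.9 to 35.0 CPM in fresh CD5lo against 7.98 to 8.92 in fresh CD5hi libraries. When rested they summed to 18.5 to 22.3 CPM in CD5lo against 6.21 to 8.09 in CD5hi libraries. Of the 2, 1 was called lower in CD5hi cells in both states. In Treg they summed to 13.7 to 15.9 CPM. Those of NK cells summed to 2.09 to 2.71 CPM in Treg and to at most 0.253 in any naive library. What these marker differences contribute to the results was not tested. Markers of hepatocytes and fat cells, both rich in these pathways, summed to at most 0.357 CPM in any library.

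Cholesterol is built from acetyl-CoA through mevalonate, squalene and lanosterol, and fatty acids are built from the same acetyl-CoA by carboxylation and chain extension. When sterol in the endoplasmic reticulum is low, the escort protein Scap carries the precursors of the SREBP transcription factors to the Golgi for cleavage, and the Insig proteins hold Scap back when sterol is plentiful. Cleaved SREBP2 acts mainly on sterol genes and SREBP1c mainly on fatty acid genes, and activated T cells are known to switch on both. Oxysterols act through the nuclear receptors LXR, which induce sterol efflux and also SREBP1c and some desaturases.

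The promoters of 4 members are shown, those of Acat2, Insig1 and Idi1, which were among the largest rises in rested cells, and that of Acss2, which was lower in rested cells and lower still in Treg. No window was matched for Scd2, the largest fall. Each run holds 250 bases before and 50 bases after the start of transcription from RefSeq on GRCm38.p6, whereas the counts were made on mm9. Capitals mark the letters searched on both strands, namely the sterol element TCACNCCAC, the E-box CACGTG, the CCAAT box and the Sp1 letters GGGCGG. The Acat2 run lies at chr17:12960676-12960975 on the minus strand, the Insig1 run at chr5:28071162-28071461, the Idi1 run at chr13:8885356-8885655 and the Acss2 run at chr2:155517793-155518092, the last 3 on the plus strand.
Acat2: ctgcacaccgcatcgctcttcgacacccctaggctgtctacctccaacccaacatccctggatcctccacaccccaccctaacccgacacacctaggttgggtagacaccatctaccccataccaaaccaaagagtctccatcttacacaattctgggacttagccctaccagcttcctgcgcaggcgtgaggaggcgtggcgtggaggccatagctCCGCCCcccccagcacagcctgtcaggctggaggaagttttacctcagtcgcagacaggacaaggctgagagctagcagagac
Insig1: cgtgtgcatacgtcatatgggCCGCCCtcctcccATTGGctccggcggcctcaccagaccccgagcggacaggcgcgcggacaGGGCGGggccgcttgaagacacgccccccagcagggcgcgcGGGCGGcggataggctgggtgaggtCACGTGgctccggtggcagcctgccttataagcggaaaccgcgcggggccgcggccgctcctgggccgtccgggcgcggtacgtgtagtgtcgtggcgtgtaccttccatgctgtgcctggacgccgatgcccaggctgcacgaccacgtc
Idi1: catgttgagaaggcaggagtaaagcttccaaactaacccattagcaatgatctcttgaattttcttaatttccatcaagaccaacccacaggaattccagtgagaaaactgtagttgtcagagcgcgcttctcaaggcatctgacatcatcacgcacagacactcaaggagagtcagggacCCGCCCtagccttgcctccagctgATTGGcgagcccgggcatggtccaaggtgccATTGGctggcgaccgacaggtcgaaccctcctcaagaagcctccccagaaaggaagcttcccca
Acss2: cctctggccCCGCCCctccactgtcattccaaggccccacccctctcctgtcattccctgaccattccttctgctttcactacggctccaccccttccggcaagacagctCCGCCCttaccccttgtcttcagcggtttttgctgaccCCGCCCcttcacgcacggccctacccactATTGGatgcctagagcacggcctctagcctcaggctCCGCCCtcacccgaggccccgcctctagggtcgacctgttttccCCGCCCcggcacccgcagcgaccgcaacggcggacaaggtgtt
CCAAT stood in 22 of the 34 promoter windows of the 27 members that the table holds (64.7%) and in 37.4% of all 32851 windows of this length. GGGCGG stood in 25 member windows (73.5%) and 35.7% of all windows, and CACGTG in 7 (20.6%) and 7.15%. TCACNCCAC stood in 1 member window, that of Hmgcs1, as TCACCCCAC 137 bases before the start, and in 1.24% of all windows. Some members have several windows, and windows of Scap overlap, so that the same CACGTG of Scap is counted again. The set of all windows was not matched to the members in expression or base composition, so the shares do not test a link to the pathway. All of these are counts of letters and name no bound factor.

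Most of the sterol pathway was higher after resting in both CD5 groups. In CD5hi cells 19 of the 31 tested members were higher and 3 lower after resting, where 26.2% of all genes tested were higher and 26.2% lower. In CD5lo cells 18 were higher and 3 lower, where 26.9% of all genes were higher and 27.3% lower. All 18 members higher in CD5lo cells were among the 19 of CD5hi cells, and the same 3 were lower in both. The median log2 fold change of the members was 0.39 in CD5hi and 0.47 in CD5lo cells, against 0.00 and -0.01 over all genes. Calls are from edgeR's quasi-likelihood test at a Benjamini-Hochberg adjusted p under 0.05. At least 2-fold rises were called for 6 members in each CD5 group and at least 2-fold falls for 1. Over all genes, such rises made up 4.63% in CD5hi and 4.67% in CD5lo cells, and such falls 6.60% and 7.13%.

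**Figure D1:**
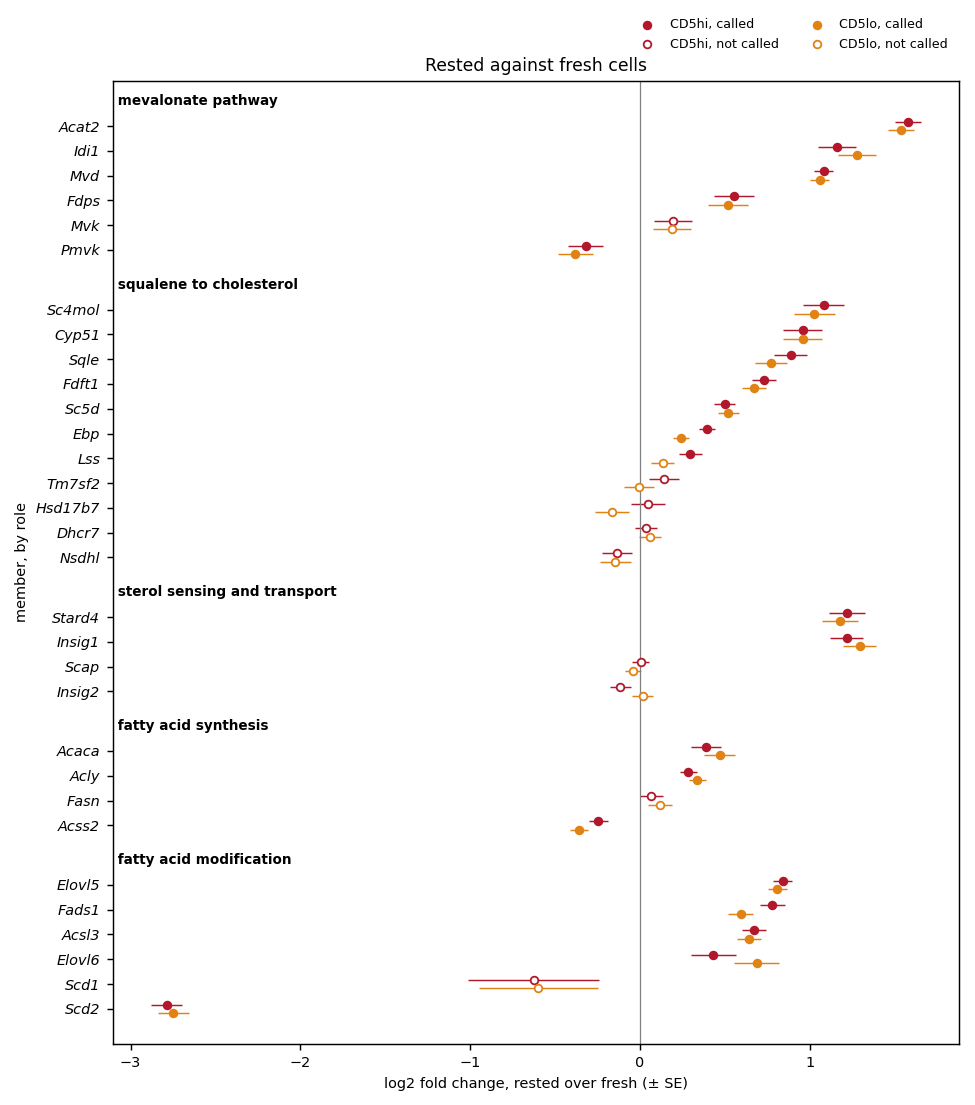
Log2 fold change (± SE) of each tested member, rested over fresh, in CD5hi (red) and CD5lo cells (orange), grouped by role, with filled points for calls at an adjusted p under 0.05. Acat2, Idi1, Mvd, Sc4mol, Stard4 and Insig1 lie above 1 in both CD5 groups, and Scd2 lies near -2.8.

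In the mevalonate pathway, 4 of the 6 tested members rose and 1 fell in each CD5 group. Acat2, the cytosolic thiolase that joins acetyl-CoA units in the first step, stood at 57.8, 61.1, 57.7 and 64.9 CPM in rested CD5hi libraries, against 18.6, 20.8, 21.7 and 19.8 in fresh CD5hi libraries. In CD5lo cells it stood at 53.6, 56.5, 53.0 and 57.1 CPM when rested, against 17.1, 20, 21.7 and 17.2 when fresh. Every rested library lay above every fresh one. The log2 fold change was 1.58 ± 0.08 in CD5hi cells (adjusted p = 2.8e-13) and 1.54 ± 0.08 in CD5lo cells (adjusted p = 4.8e-13). Acat2 has a neighbouring copy in the mouse, Acat3, and how reads shared by both were counted is not given in the sources used here. Acat3, named after its values were seen, rose by 0.64 ± 0.06 in CD5hi and 0.55 ± 0.06 in CD5lo cells (adjusted p = 4e-08 and 3.8e-07).

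Idi1, the isomerase that makes dimethylallyl pyrophosphate, stood at 64.4, 61.2, 76.8 and 65.6 CPM in rested CD5hi libraries, against 28.0, 29.0, 34.6 and 28.3 in fresh ones. In CD5lo cells the rested libraries held 57.1, 57.8, 70.4 and 76.4 CPM and the fresh ones 26.4, 24.4, 32.0 and 25.2. The groups did not overlap, and the log2 fold changes were 1.16 ± 0.11 and 1.28 ± 0.11 (adjusted p = 2e-08 and 4.6e-09). Mvd, which decarboxylates mevalonate pyrophosphate, held 45.5, 43.8, 43.9 and 40.9 CPM in rested CD5hi libraries, against 19.6, 20.1, 21.9 and 20.5 in fresh CD5hi libraries. In CD5lo cells it held 46.4, 43.0, 45.9 and 43.7 CPM when rested, against 21.0, 21.4, 20.9 and 22.6 when fresh. Mvd had the narrowest spread of these 3, and its rises were 1.08 ± 0.06 and 1.06 ± 0.06 (adjusted p = 1.4e-12 and 1.8e-12).

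Fdps, the farnesyl pyrophosphate synthase, rose by 0.55 ± 0.12 in CD5hi and 0.52 ± 0.12 in CD5lo cells. With rested replicates 1 and 2 alone its rises were 0.33 and 0.28, and with replicates 3 and 4 alone 0.74 and 0.73. Pmvk, the phosphomevalonate kinase, went the other way, at 7.95 ± 0.532 CPM in rested against 9.92 ± 0.521 in fresh CD5hi cells, and 8.25 ± 1.36 in rested against 10.8 ± 1.01 in fresh CD5lo cells (-0.32 ± 0.11 and -0.38 ± 0.10). Mvk, the mevalonate kinase one step before it, did not pass the test, at 0.19 ± 0.11 in both CD5 groups. In CD5lo cells its change was 0.42 with the libraries that carry Y-linked reads alone. The call on Pmvk was lost in CD5hi cells with the libraries that carry Y-linked reads alone, where the change was -0.30. In CD5lo cells it was lost with rested replicates 1 and 2 alone (-0.26, adjusted p = 0.060).

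**Figure D2:**
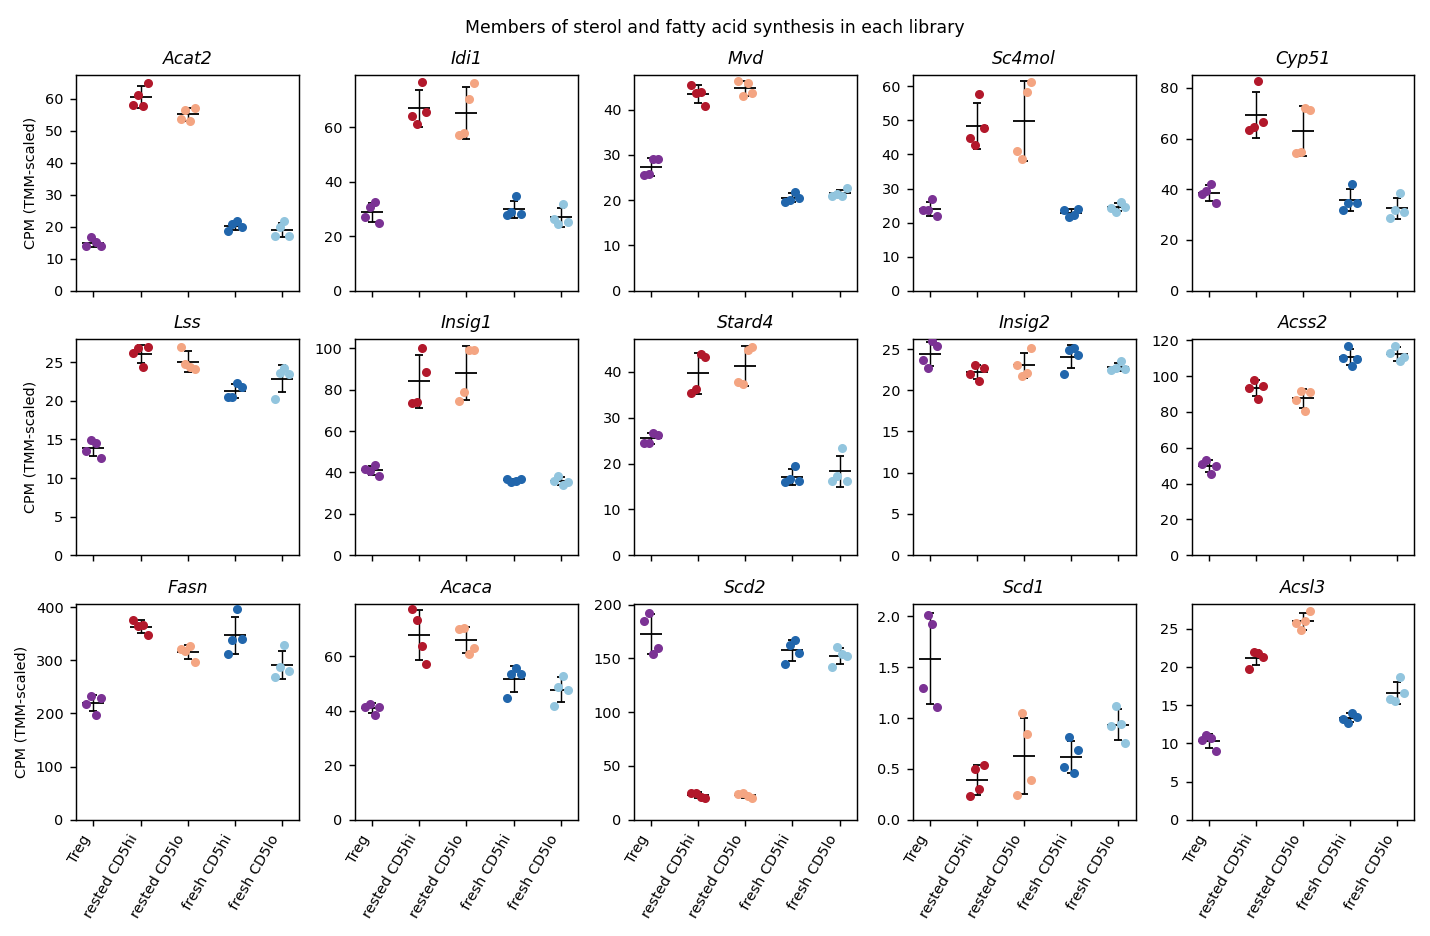
CPM in each of the 20 libraries for the 3 members of each role with the widest range of group means, with the mean and SD of each group of 4. Acat2, Idi1, Mvd, Sc4mol, Cyp51, Insig1 and Stard4 are higher in every rested library than in every fresh one, Scd2 is lower in every rested library, and Acss2 and Lss are lowest in Treg.

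Of the 11 members between squalene and cholesterol, 7 rose in CD5hi and 6 in CD5lo cells, and none fell. Sc4mol, the oxidase that starts removal of the C4 methyl groups from lanosterol products, held 44.7, 42.8, 57.9 and 47.9 CPM in rested CD5hi libraries, against 23.7, 21.7, 22.1 and 23.9 in fresh ones. Its rested CD5lo libraries held 41.1, 38.6, 58.4 and 61.3 CPM, against 24.2, 23.1, 26.1 and 24.6 in fresh ones. Rested replicates 3 and 4 of CD5lo cells lay well above replicates 1 and 2, but each rested library was above each fresh one. The rises were 1.08 ± 0.12 and 1.03 ± 0.12 (adjusted p = 2.2e-07 and 4e-07). In CD5lo cells the rise was 0.70 with rested replicates 1 and 2 alone and 1.30 with replicates 3 and 4 alone.

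Cyp51, the lanosterol demethylase, held 63.4, 64.7, 82.5 and 66.6 CPM in rested CD5hi libraries, against 31.8, 34.4, 42.0 and 34.5 in fresh ones. In CD5lo cells it held 54.4, 54.7, 71.9 and 71.4 CPM when rested, against 28.8, 31.8, 38.5 and 31.0 when fresh. No rested library overlapped a fresh one, and the rise was 0.96 ± 0.11 in each CD5 group (adjusted p = 5.1e-07 in CD5hi and 5e-07 in CD5lo cells). Sqle, the squalene epoxidase that controls entry into the sterol branch, rose by 0.89 ± 0.10 and 0.77 ± 0.10. Fdft1, the squalene synthase, rose by 0.73 ± 0.07 and 0.67 ± 0.07. The late enzymes Sc5d, a sterol desaturase, and Ebp, a sterol isomerase encoded on the X chromosome, rose less. Sc5d rose by 0.50 ± 0.06 in CD5hi and 0.52 ± 0.06 in CD5lo cells, and Ebp by 0.39 ± 0.05 and 0.24 ± 0.05.

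Lss, the cyclase that makes lanosterol between Sqle and Cyp51, moved far less than both. It held 26.2, 26.9, 24.4 and 26.9 CPM in rested CD5hi libraries, against 20.5, 20.5, 22.3 and 21.8 in fresh ones, and 27.0, 24.8, 24.4 and 24.2 in rested CD5lo libraries, against 20.2, 23.7, 24.2 and 23.5 in fresh ones. The rise of 0.29 ± 0.07 was called in CD5hi cells (adjusted p = 0.00098) and the value of 0.13 ± 0.07 was not called in CD5lo cells, where the libraries overlapped. The CD5hi call was lost with the libraries that carry Y-linked reads alone (0.21, adjusted p = 0.10). The remaining 4 members of the branch were not called in either CD5 group. These were Tm7sf2, a sterol reductase, Nsdhl and Hsd17b7, which complete C4 demethylation, and Dhcr7, the last reductase. Their log2 fold changes lay between -0.16 and 0.14. With a term for sex, Nsdhl, also encoded on the X chromosome, was called lower in CD5lo cells (-0.26, adjusted p = 0.046).

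Among the 4 genes of sterol sensing and transport, Insig1 and Stard4 rose in both CD5 groups, and Insig2 and Scap were not called in either. Insig1, itself a known SREBP target, held 73.7, 74.0, 99.97 and 88.6 CPM in rested CD5hi libraries, against 36.7, 35.5, 35.9 and 36.7 in fresh ones. Its rested CD5lo libraries held 74.6, 79.0, 99.3 and 99.1 CPM, against 35.7, 38.4, 34.1 and 35.5 in fresh ones. Rested replicates 3 and 4 were the higher pair in both CD5 groups. The rises were 1.22 ± 0.10 and 1.29 ± 0.10 (adjusted p = 9.7e-10 and 3.5e-10). Stard4, a carrier that moves sterol between membranes, held 35.4, 36.4, 44.0 and 43.2 CPM in rested CD5hi libraries, against 16, 16.6, 19.6 and 16.2 in fresh ones. Rested CD5lo libraries held 37.8, 37.3, 44.7 and 45.4 CPM, against 16.3, 17.2, 23.3 and 16.3 in fresh ones. The rises were 1.22 ± 0.11 and 1.18 ± 0.11 (adjusted p = 5.9e-09 and 9.1e-09).

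Insig2, the second retention protein, held 22.0, 23.0, 21.1 and 22.7 CPM in rested CD5hi libraries, against 22.0, 24.9, 25.1 and 24.3 in fresh ones, and 23.0, 21.7, 22.1 and 25.2 in rested CD5lo libraries, against 22.4, 22.7, 23.5 and 22.6 in fresh ones. The libraries overlapped, with log2 fold changes of -0.12 ± 0.06 and 0.01 ± 0.06. Without fresh CD5hi replicate 1 the CD5hi change was called (-0.16, adjusted p = 0.045). Scap stood between 112 and 130 CPM in all 20 libraries, with changes of 0.00 ± 0.05 and -0.04 ± 0.05.

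Summed over its 22 rows, the sterol part of the list reached 904 ± 43.8 CPM in rested CD5hi cells, against 596 ± 17.6 in fresh CD5hi cells, and 877 ± 60.2 in rested CD5lo cells, against 586 ± 24.3 in fresh CD5lo cells (SD, n = 4 each). By library the rested sums were 870, 868, 961 and 917 CPM in CD5hi and 834, 816, 924 and 933 CPM in CD5lo cells, so replicates 3 and 4 were the higher pair in both. These sums are shares of the counted RNA, and neither the RNA per cell nor a change in the mix of cells can be read from them in bulk samples.

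Of the 10 tested fatty acid members, 6 rose and 2 fell on resting in each CD5 group. Of the 4 tested genes of fatty acid synthesis, 2 rose and 1 fell in each CD5 group. Acly, which cuts citrate into acetyl-CoA in the cytosol, rose by 0.28 ± 0.05 in CD5hi and 0.34 ± 0.05 in CD5lo cells. Acaca, the carboxylase that makes malonyl-CoA, held 77.3, 73.2, 63.6 and 57.0 CPM in rested CD5hi libraries, against 44.8, 53.4, 55.5 and 53.3 in fresh ones. In rested CD5lo libraries it held 69.8, 70.2, 60.9 and 63.0 CPM, against 41.7, 48.7, 52.8 and 47.6 in fresh ones. Here rested replicates 1 and 2 were the higher pair, and the rises were 0.39 ± 0.09 and 0.47 ± 0.09 (adjusted p = 0.0010 and 0.00016). In CD5hi cells the rise was 0.23 when replicates 1 and 2 of the rested libraries were left out.

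Fasn, the synthase itself, held 375, 365, 366 and 347 CPM in rested CD5hi libraries, against 312, 339, 397 and 340 in fresh ones, and 321, 318, 328 and 296 in rested CD5lo libraries, against 269, 287, 329 and 281 in fresh ones. The ranges overlapped and neither change was called (0.07 ± 0.07 and 0.12 ± 0.07), although that in CD5lo cells was without fresh CD5lo replicate 3 (0.18, adjusted p = 0.032). Acss2, which makes acetyl-CoA from acetate, held 93.5, 97.7, 87.0 and 94.5 CPM in rested CD5hi libraries, against 110.1, 117, 106 and 109.6 in fresh ones. Its rested CD5lo libraries held 86.9, 91.6, 80.5 and 90.9 CPM, against 113, 117, 108 and 111 in fresh ones. All rested libraries lay below all fresh ones, with falls of 0.25 ± 0.05 and 0.36 ± 0.05 on the log2 scale (adjusted p = 0.00075 and 1.2e-05).

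In fatty acid modification, 4 of 6 tested members rose and 1 fell in each CD5 group. The fall was that of Scd2, the stearoyl-CoA desaturase that introduces the first double bond, and it was the largest change of any member in the comparisons of groups. Scd2 held 25.2, 25.2, 21.0 and 19.9 CPM in rested CD5hi libraries, against 145, 163, 167 and 155 in fresh ones. Rested CD5lo libraries held 24.0, 24.9, 21.8 and 20.2 CPM, against 142, 161, 154 and 153 in fresh ones. The fall was 6.91-fold in CD5hi and 6.72-fold in CD5lo cells (log2 fold changes of -2.79 ± 0.09 and -2.75 ± 0.09, adjusted p = 5e-16 and 5.6e-16). Scd1, the desaturase best known from liver, was near the limit of measurement, at 9 to 46 counts per library in rested and 24 to 66 in fresh cells. It held 0.394 ± 0.148 CPM in rested against 0.618 ± 0.159 in fresh CD5hi cells and 0.630 ± 0.375 in rested against 0.935 ± 0.149 in fresh CD5lo cells, and neither difference was called. Without rested CD5lo replicate 2 the CD5lo difference was called (-0.96, adjusted p = 0.032). The Scd genes are close in sequence, and how reads shared among them were counted is not given.

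Elovl5, an elongase of polyunsaturated chains, rose by 0.84 ± 0.06 in CD5hi and 0.81 ± 0.06 in CD5lo cells. Fads1, the delta-5 desaturase, rose by 0.78 ± 0.07 and 0.59 ± 0.07. Acsl3, which activates fatty acids with coenzyme A at lipid droplets, held 19.7, 22.0, 21.8 and 21.3 CPM in rested CD5hi libraries, against 13.2, 12.6, 14 and 13.5 in fresh ones. Its rested CD5lo libraries held 25.7, 24.8, 26.0 and 27.3 CPM, against 15.7, 15.5, 18.7 and 16.6 in fresh ones. The rested and fresh libraries were apart, at rises of 0.67 ± 0.07 and 0.64 ± 0.07 (adjusted p = 1.1e-07 and 1.6e-07). Elovl6, the elongase of saturated chains, rose by 0.43 ± 0.13 and 0.69 ± 0.13. Among rested libraries its lowest values, 40.9 CPM in CD5hi and 32.7 in CD5lo cells, were those of replicate 3, the ones with Y-linked reads. Replicate 4, with Xist reads, was next lowest at 48.6 and 38.8 CPM. Replicates 1 and 2 held 55.3 and 54.4 CPM in CD5hi and 50.6 and 50.0 in CD5lo cells. With rested replicates 3 and 4 alone the CD5hi call on Elovl6 was lost (0.29, adjusted p = 0.059). With the libraries that carry Y-linked reads alone, its change was 0.17 in CD5hi (adjusted p = 0.38) and 0.31 in CD5lo cells (0.11), and with a term for sex it was 0.14 (0.35) and 0.38 (still called in CD5lo cells).

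The fatty acid part, summed over its 12 rows, held 1242 ± 20.1 CPM in rested against 1156 ± 60.9 in fresh CD5hi cells, and 1188 ± 2.98 in rested against 1082 ± 51.1 in fresh CD5lo cells. In naive cells Fasn and Acly make up most of this sum, so it says little of the smaller members.

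Whether resting acted differently on CD5hi and CD5lo cells was tested as an interaction. By edgeR 0 of the 31 members were called, where 0.451% of all genes were called. At an unadjusted p under 0.05 there was 1 member, Ebp (0.15 ± 0.07, adjusted p = 0.72), and DESeq2 called 0.

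Genes of the same pathways outside the list were set beside the members. Of 26 further synthesis genes tested, 11 rose and 8 fell on resting in CD5hi cells and 13 rose and 9 fell in CD5lo cells. Among the rises was Agpat2, which builds phosphatidic acid, at 0.74 ± 0.14 and 0.89 ± 0.14. The largest falls were in Acacb, the mitochondrial acetyl-CoA carboxylase, at -2.50 ± 0.30 and -3.32 ± 0.27, Gpam, the first enzyme of triglyceride synthesis, at -1.49 ± 0.19 and -1.46 ± 0.19, and the elongase Elovl7, at -0.82 ± 0.20 and -0.79 ± 0.19. The SREBP genes parted, with Srebf2 at 0.29 ± 0.05 in both CD5 groups and Srebf1 at -0.53 ± 0.07 and -0.52 ± 0.07, all called.

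Of 16 genes of sterol efflux, esterification and LXR response, 4 rose and 6 fell in each CD5 group. Abca1, the cholesterol exporter, held 4.65 ± 0.361 CPM in rested against 79.1 ± 14.3 in fresh CD5hi cells and 5.79 ± 0.730 in rested against 77.4 ± 12.5 in fresh CD5lo cells (-4.09 ± 0.16 and -3.75 ± 0.15). Mylip, a ubiquitin ligase induced by LXR, fell by 1.11 ± 0.06 and 1.03 ± 0.06, and the exporter Abcg1 by 1.01 ± 0.09 and 0.98 ± 0.09. Abca1 is also a gene of macrophages. Of 5 myeloid markers 4 were tested, and all 4 were called lower in rested cells of both CD5 groups. Whether this bears on the fall of Abca1 was not tested. The receptor genes Rxra (1.06 ± 0.07 and 0.52 ± 0.07) and Nr1h2 (0.31 ± 0.05 and 0.32 ± 0.05) and the sterol carrier Npc2 (0.47 ± 0.05 and 0.41 ± 0.05) rose. Of 20 fatty acid oxidation genes, 3 rose and 7 fell in CD5hi cells and 5 rose and 6 fell in CD5lo cells, with Cpt1b, Acadm and Acads the largest rises and Etfb among the largest falls.

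**Figure D3:**
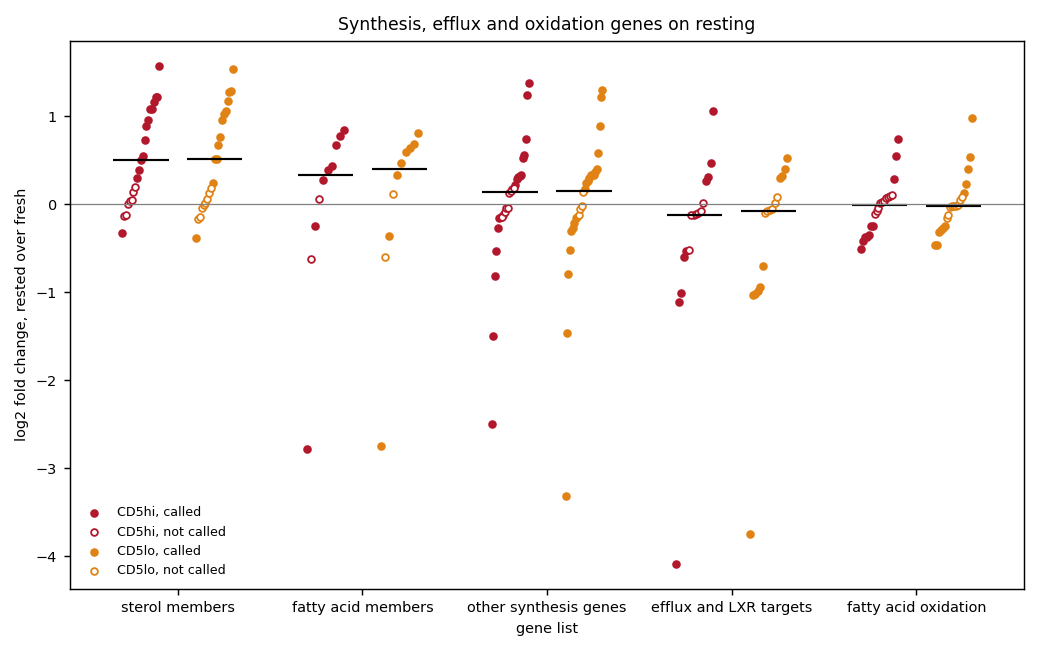
Log2 fold change, rested over fresh, of each tested gene in 5 lists, in CD5hi (red) and CD5lo cells (orange), with filled points for calls and a bar at each median. The medians of the sterol members lie near 0.5 and those of the efflux and oxidation lists just below 0.

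Treg differed from fresh naive cells in both directions. Over fresh CD5hi cells, 7 of the 31 members were higher in Treg and 10 lower, where 27.5% of all genes were higher and 26.6% lower. Over fresh CD5lo cells, 7 were higher and 9 lower, where 29.2% of all genes were higher and 29.4% lower. With relative log expression (RLE) scaling the second count was 10 higher and 8 lower. Over all 13309 genes, 4081 were then higher and 3523 lower, against 3881 and 3910 in the main fit. The medians of the members were 0.02 and -0.03, beside -0.02 and -0.03 over all genes. Only Scd1 was higher by at least 2-fold, over CD5hi cells, and only Acss2 was lower by at least 2-fold, over both. Both comparisons use the same Treg libraries.

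**Figure D4:**
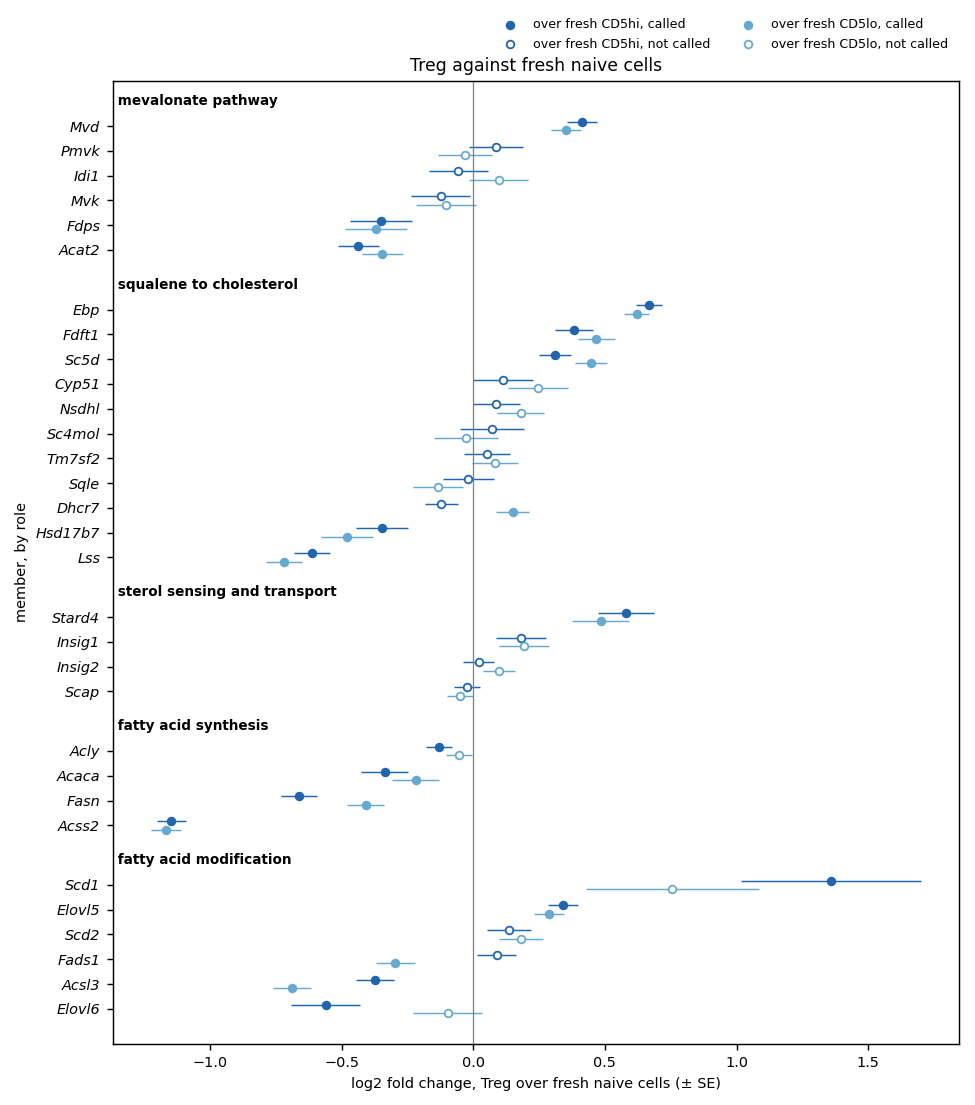
Log2 fold change (± SE) of each tested member in Treg over fresh CD5hi (dark blue) and over fresh CD5lo cells (light blue), grouped by role, with filled points for calls. Acss2 lies near -1.15 in both comparisons, and Ebp, Stard4, Fdft1, Sc5d, Mvd and Elovl5 are higher in both.

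Of the 4 tested members of fatty acid synthesis, 4 were lower in Treg than in CD5hi cells and 3 lower than in CD5lo cells, and none was higher. Acss2 held 50.9, 53.3, 45.5 and 50.0 CPM in Treg libraries, against 106 to 117 CPM in the 8 fresh naive libraries. Its log2 fold change was -1.15 ± 0.06 over CD5hi and -1.17 ± 0.06 over CD5lo cells (adjusted p = 1.2e-13 and 6.5e-14). Fasn held 218, 232, 198 and 229 CPM in Treg, below all naive libraries, at -0.66 ± 0.07 over CD5hi (adjusted p = 4.6e-08) and -0.41 ± 0.07 over CD5lo cells (3e-05). Acaca held 41.6, 42.6, 38.3 and 41.4 CPM in Treg, at -0.34 ± 0.09 and -0.22 ± 0.09 (adjusted p = 0.0031 and 0.041). The second of these calls was lost under 12 of 16 alternatives, including DESeq2 (adjusted p = 0.075). It was lost also with the libraries with Y-linked reads alone, although the change there was -0.30. Acly was lower by 0.13 ± 0.05 on the log2 scale than in CD5hi cells (adjusted p = 0.031), a call lost under 12 of 16 alternatives including DESeq2 (0.11), and was not called against CD5lo cells (-0.06 ± 0.05).

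In the sterol pathway the steps split. Ebp held 44.2, 46.0, 45.1 and 44.5 CPM in Treg libraries, against 27.5, 28.6, 28.7 and 28.3 in fresh CD5hi and 29.7, 30.8, 29.8 and 26.6 in fresh CD5lo libraries. It was higher by 0.67 ± 0.05 and 0.62 ± 0.05 (adjusted p = 1.4e-10 and 3.8e-10), and by 0.69 and 0.64 with the libraries that carry Y-linked reads alone. Stard4 held 24.6, 24.5, 26.8 and 26.3 CPM in Treg, above all 8 fresh libraries, and was higher by 0.58 ± 0.11 and 0.48 ± 0.11 (adjusted p = 9.6e-05 and 0.00056). Fdft1 was higher by 0.38 ± 0.07 and 0.47 ± 0.07, Mvd by 0.41 ± 0.06 and 0.35 ± 0.06, and Sc5d by 0.31 ± 0.06 and 0.45 ± 0.06.

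Lss was the sterol member furthest below naive cells, at 13.6, 15.0, 14.5 and 12.6 CPM in Treg libraries, with log2 fold changes of -0.61 ± 0.07 over CD5hi and -0.72 ± 0.07 over CD5lo cells (adjusted p = 1.2e-07 and 8.2e-09). No Treg library reached the lowest fresh one, at 20.2 CPM. Acat2 held 14.1, 16.6, 15.1 and 14 CPM in Treg, all below the fresh libraries, at -0.44 ± 0.08 and -0.35 ± 0.08 (adjusted p = 4.9e-05 and 0.00054). Hsd17b7 (-0.35 ± 0.10 and -0.48 ± 0.10) and Fdps (-0.35 ± 0.12 and -0.37 ± 0.12) were lower as well. With the libraries that carry Y-linked reads alone, the calls on Hsd17b7 were lost against both groups, at -0.11 and -0.24. That on Acat2 was lost against CD5lo cells, at -0.31. With a term for sex, the calls on Fdps were lost (adjusted p = 0.29 and 0.22). They were lost also without Treg replicate 4 (0.10 and 0.075), and singly without fresh CD5hi replicate 2 (0.070) or fresh CD5lo replicate 3 (0.056).

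Insig1 held 41.5, 40.9, 43.5 and 38.4 CPM in Treg libraries and was not called against either group (0.18 ± 0.10 and 0.19 ± 0.10). It was called against both with a term for sex (0.36 and 0.37, adjusted p = 0.0028 and 0.0020). The same held with only the compared groups (0.19 and 0.21, adjusted p = 0.0038 and 0.0040). With the libraries with Y-linked reads alone its changes were 0.28 and 0.30. Idi1, Sc4mol, Cyp51 and Sqle, which rose on resting, were not called in Treg, with log2 fold changes between -0.13 and 0.25. With a term for sex, Cyp51 was called over both groups (0.30 and 0.44, adjusted p = 0.032 and 0.0028), and over CD5lo cells it was called under 8 of 16 alternatives. Over CD5hi cells Sc4mol was called with a term for sex (0.29, adjusted p = 0.047) and with the libraries with Y-linked reads alone (0.25, adjusted p = 0.031). Dhcr7 was higher by 0.15 ± 0.06 than in CD5lo cells (adjusted p = 0.045), a call lost under 7 of 16 alternatives, among them a term for sex (0.10) and the libraries with Y-linked reads alone (0.08, adjusted p = 0.48). It was not called against CD5hi cells (-0.12 ± 0.06). The sterol sum was 626 ± 20.7 CPM in Treg, against 596 ± 17.6 in fresh CD5hi and 586 ± 24.3 in fresh CD5lo cells.

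Among fatty acid modifiers, Elovl5 was higher in Treg by 0.34 ± 0.06 and 0.29 ± 0.06. Scd1 held 1.29, 2.01, 1.92 and 1.11 CPM in Treg libraries, against 0.518, 0.811, 0.461 and 0.682 in fresh CD5hi and 0.922, 1.12, 0.939 and 0.758 in fresh CD5lo libraries. It was higher than in CD5hi cells by 1.36 ± 0.34 (adjusted p = 0.0020) and not called against CD5lo cells (0.76 ± 0.33, adjusted p = 0.054), where the libraries overlapped. Scd2 held 185, 192, 154 and 160 CPM in Treg and was not called against either group (0.13 ± 0.08 over CD5hi and 0.18 ± 0.08 over CD5lo cells). Over CD5lo cells it was called higher under 9 of 16 alternatives, DESeq2 (adjusted p = 0.028) and RLE scaling (0.032) among them, and Scd1 under 8 of 16. Acsl3 held 10.4, 11.1, 10.6 and 9.04 CPM, below every naive library, at -0.37 ± 0.07 over CD5hi and -0.69 ± 0.07 over CD5lo cells (adjusted p = 0.00017 and 4.1e-08). Elovl6 was lower than in CD5hi cells (-0.56 ± 0.13) and not called against CD5lo cells (-0.10 ± 0.13), although it was with a term for sex (-0.39, adjusted p = 0.0099). Fads1 was not called against CD5hi cells (0.09 ± 0.07) and was lower than in CD5lo cells (-0.30 ± 0.07).

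Of the 26 further synthesis genes, 7 were higher and 6 lower in Treg than in fresh CD5hi cells, and 6 were higher and 10 lower than in fresh CD5lo cells. Elovl7 held 0.501 ± 0.264 CPM in Treg, against 7.74 ± 0.625 in fresh CD5hi and 8.82 ± 1.19 in fresh CD5lo cells (-3.96 ± 0.25 and -4.15 ± 0.25). Mid1ip1, an activator of acetyl-CoA carboxylase, was higher by 0.95 ± 0.10 and 1.16 ± 0.10, and Slc25a1, which exports citrate from mitochondria, by 0.65 ± 0.08 and 0.64 ± 0.08. Of the 16 efflux and LXR genes, 4 were higher and 7 lower than in CD5hi cells and 4 higher and 9 lower than in CD5lo cells. The cholesterol acyltransferase Soat2 was higher by 1.47 ± 0.20 and 1.44 ± 0.20 and Mylip lower, at -1.04 ± 0.06 and -1.09 ± 0.06. Of the 20 oxidation genes, 8 were higher and 4 lower, then 9 higher and 3 lower, with the dienoyl-CoA reductase Decr1 the largest rise (1.17 ± 0.08 and 1.98 ± 0.08).

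CD5hi and CD5lo cells differed in few members. In rested cells 1 member was higher in CD5hi and 1 lower, where 4.74% of all genes were higher and 3.46% lower. With the replicate number as a block, since the CD5hi and CD5lo libraries of one number and state deviated together, 5 were higher and 2 lower, where 8.72% and 8.84% of all genes were called. In fresh cells 3 members were higher in CD5hi and 2 lower, where 6.86% of all genes were higher and 4.59% lower, and the block added Sc5d (0.14, adjusted p = 0.036). No member differed by 2-fold in either state.

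**Figure D5:**
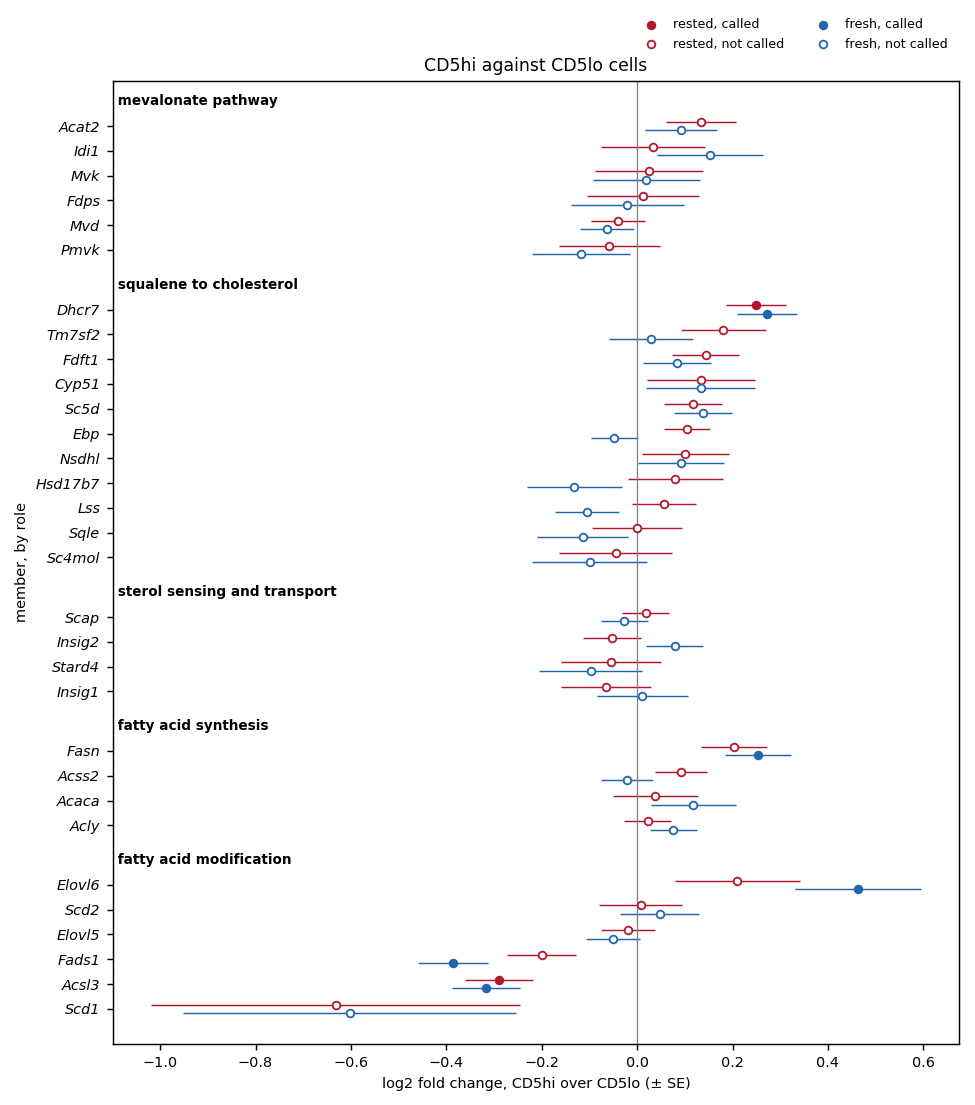
Log2 fold change (± SE) of each tested member, CD5hi over CD5lo, in rested (red) and fresh cells (blue), grouped by role, with filled points for calls without the block. Dhcr7 is higher and Acsl3 lower in both states, and all members other than Scd1 lie within 0.5 of 0.

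Dhcr7 was the sterol member that differed in both states. It held 43.8, 45.1, 46.6 and 40.3 CPM in rested CD5hi libraries, against 38.8, 34.9, 36.9 and 37.3 in rested CD5lo libraries, and 39.9, 43.2, 44.6 and 43.8 in fresh CD5hi libraries, against 33.3, 35.3, 39.3 and 34.2 in fresh CD5lo libraries. The groups did not overlap, at 0.25 ± 0.06 in rested (adjusted p = 0.014) and 0.27 ± 0.06 in fresh cells (adjusted p = 0.0046). Acsl3 was lower in CD5hi cells, at -0.29 ± 0.07 in rested (adjusted p = 0.011) and -0.32 ± 0.07 in fresh cells (adjusted p = 0.0041), and its CD5hi libraries lay below the CD5lo libraries in both states.

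Elovl6 and Fasn were higher in fresh CD5hi cells. Elovl6 held 43.0, 35.4, 38.2 and 31.1 CPM in fresh CD5hi libraries, against 30.9, 25.0, 27.2 and 23.9 in fresh CD5lo libraries, a difference of 0.46 ± 0.13 (adjusted p = 0.023). Fasn differed by 0.25 ± 0.07 (adjusted p = 0.017), with overlapping libraries. In rested cells Elovl6 differed by 0.21 ± 0.13 and Fasn by 0.20 ± 0.07, called only with the block (adjusted p = 0.0038 and 0.00021). Without fresh CD5hi replicate 3 both fresh calls were lost (adjusted p = 0.050 and 0.089), as they were without fresh CD5lo replicate 4 (0.074 and 0.059). Elovl6 also lost its call without fresh CD5hi replicate 1 or fresh CD5lo replicate 2, and Fasn without fresh CD5lo replicate 1.

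Fads1 was lower in fresh CD5hi cells, at 15.6, 13.9, 17.2 and 15.4 CPM against 19.7, 19.7, 21.5 and 20.3 in fresh CD5lo libraries (-0.39 ± 0.07, adjusted p = 0.00085). In rested cells its difference of -0.20 ± 0.07 was not called, but it was with the block (adjusted p = 0.026) and without rested CD5hi replicate 4 (0.034). The block also called Acat2 (0.13, adjusted p = 0.045) and Acss2 (0.09, adjusted p = 0.049) higher in rested CD5hi cells. The rested calls on Dhcr7 and Acsl3 were lost with replicates 1 and 2 alone (adjusted p = 0.065 and 0.13) and with replicates 3 and 4 alone (0.22 and 0.12). The call on Dhcr7 was lost also without rested CD5lo replicate 2 (0.057), and that on Acsl3 without rested CD5hi replicate 1 (0.055) or rested CD5lo replicate 4 (0.050).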

How the data were processed

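Polyadenylated RNA of 20 sorted T cell samples was sequenced with 50-cycle paired-end reads. The authors deposited a table of raw read counts for 22068 gene symbols, which was used here, and a table of normalized values, which was not. Per the submitters' processing notes, the mm9 build was used with TopHat2 2.0.11, edgeR and, from Subread, featureCounts 1.4.5. The annotation is not given in the sources used here, nor are the strand setting and the treatment of shared reads, so overlapping and antisense genes cannot be separated. Of counts from 1 to 10, 62.3 to 66.2% per library were even.

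Counts were fitted with edgeR 4.0.16 in R 4.3.3 (TMM scaling, default filter on the groups, 1 factor with 5 levels, 15 residual degrees of freedom) by the quasi-likelihood test, and p-values were adjusted by Benjamini-Hochberg over all 13309 genes within each of 7 comparisons. CPM are counts over the TMM-scaled library total, and gene lengths were not used, so levels are compared within a gene. The SE is the log2 fold change over the square root of its F and is unreliable near 0. The test was also run on simulated counts with the same spread for every gene and no replicate pairing or sex difference. That check does not cover those features of the data. The labels call the 4 libraries of a group biological replicates. Deviations of CD5hi and CD5lo libraries of the same number correlated at 0.189 to 0.517 when rested and 0.160 to 0.299 when fresh. Numbers were therefore taken to pair them within a state. The 24 pairs of Treg or rested with fresh libraries gave -0.113 to 0.0867 and were not paired. Treg gave 0.0467 to 0.357 with rested CD5hi and -0.0137 to 0.376 with rested CD5lo libraries, highest in replicate 3. In the Treg and rested groups only replicate 3 carried Y-linked reads. Pairing and sex therefore cannot be told apart as sources of the correlations among these groups.

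The members, gene lists and tests were chosen with earlier results of these data known. Full statistics are given for up to 6 called members per direction and comparison, library values for the 3 members of each role with the widest range of group means, and up to 3 called genes per direction of each other list, from 1 CPM in the higher group. Genes outside this rule are summarised or named briefly, and some genes are not reported here. Alternatives were RLE scaling, DESeq2 1.42.0, other filters, the compared groups alone, replicate blocks, a term for sex, rested replicate pairs alone and each library left out. A fit on libraries with Y-linked reads alone was added after seeing the data. In it the lone Treg or rested library is assumed to vary like the other groups.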

Additional observations from a re-analysis of the deposited data

Results flagged for a closer look

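Single libraries that stood apart from the other 3 of their group were looked for in the 15 members whose library values are given, in 75 groups of 4. A gap to the nearest library, relative to the group's whole range, above Dixon's critical value for 4 samples was found 4 times, and chance alone gives about 1 in 20. Idi1 in fresh CD5hi replicate 3 was 34.6 CPM, against 28.0 to 29.0 in the other fresh CD5hi libraries. Cyp51 in rested CD5hi replicate 3 was 82.5 CPM, against 63.4 to 66.6 in the other rested CD5hi libraries. Stard4 in fresh CD5hi replicate 3 was 19.6 CPM, against 16 to 16.6, and in fresh CD5lo replicate 3 it was 23.3 CPM, against 16.3 to 17.2. All 4 values were the highest of their group, and all belonged to sterol members in replicate 3.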

How the results depend on the processing

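The counts of members on resting stayed within 1.5 times the main counts under all 18 alternatives, at 17 to 19 higher and 2 to 4 lower in CD5hi cells and 18 to 19 higher and 2 to 4 lower in CD5lo cells. Treg counts over CD5hi cells ran from 7 to 10 higher and 8 to 10 lower. Over CD5lo cells the members higher in Treg numbered 11 with DESeq2, where 4209 of all 15038 genes tested were higher. They numbered 12 with at least 1 CPM in 4 libraries (3607 of 11618 genes) and 11 with only the compared groups (4200 of 12997 genes). With a replicate block over all groups they numbered 11 (3954 of 13309 genes). They numbered 6 to 11 with each library left out, 11 being without Treg replicate 4 (3895 of 13413 genes). In the main fit 3881 of 13309 genes were higher. Fresh CD5hi cells had 1 to 3 members higher with each library left out, the 1 being without fresh CD5hi replicate 3 or fresh CD5lo replicate 4. For rested CD5hi over CD5lo cells, the higher members numbered 5 with the replicate block within states, 0 with only the compared groups, 0 with rested replicates 1 and 2 or 3 and 4 alone, and 0 to 1 with each library left out. The lower ones numbered 2 with that block, 0 with either pair alone and 0 to 2 with each library left out. Apart from Sc5d when fresh and the 5 rested members named above, that block changed no call of a member. Over the 49 pairs of member and comparison chosen for full statistics, 803 refits kept direction and side of the threshold, 21 lost the call and 0 reversed. Weaker calls outside those pairs, such as Acaca, Acly and Dhcr7 in Treg, were lost more often, as given with each. Scd1 has the fewest counts of the tested members, which limits its precision.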

Other observations

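The lists beside the members differed between CD5hi and CD5lo cells in a few genes. Of 20 fatty acid oxidation genes, 2 were called higher and 1 lower in rested CD5hi than in rested CD5lo cells. In fresh cells 1 was called higher and 4 lower in CD5hi than in CD5lo cells. Over all genes, 4.74% were higher and 3.46% lower when rested, and 6.86% higher and 4.59% lower when fresh. Acadl, an acyl-CoA dehydrogenase, was lower in both states (-0.43 ± 0.05 rested and -0.38 ± 0.05 fresh). The reductase gene Decr1 was higher in CD5hi cells, at 9.25 ± 0.331 CPM in rested CD5hi against 6.08 ± 0.610 in rested CD5lo cells and 11.9 ± 1.27 in fresh CD5hi against 6.79 ± 0.0741 in fresh CD5lo cells (SD, n = 4 each), with log2 fold changes of 0.60 ± 0.08 and 0.81 ± 0.08 (edgeR adjusted p = 3.3e-05 and 2.3e-07). Lpin1, a phosphatidate phosphatase, was higher by 0.23 ± 0.05 and 0.20 ± 0.05. The lysosomal genes Lipa, an acid lipase, and Npc2, a sterol carrier, were lower in CD5hi cells in both states, Lipa at -0.48 ± 0.08 rested and -0.45 ± 0.08 fresh, Npc2 at -0.34 ± 0.05 rested and -0.40 ± 0.05 fresh. Acacb was lower in fresh CD5hi cells, at 1.86 ± 0.507 CPM against 5.97 ± 1.54 in fresh CD5lo cells (-1.68 ± 0.24, adjusted p = 2.6e-05). Rxra was the gene of these lists whose CD5 difference changed on resting, being higher in rested (0.29 ± 0.07) and lower in fresh CD5hi cells (-0.25 ± 0.07), an interaction of 0.54 ± 0.10 (adjusted p = 0.012).

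The relatives of Scd2 were named after their values were seen. Scd4 held 3 to 21 counts per library in rested and 45 to 95 in fresh cells, a log2 fold change of -2.44 ± 0.33 in CD5hi and -2.63 ± 0.33 in CD5lo cells (adjusted p = 3.2e-06 and 8.9e-07). Scd3 held 6 to 19 counts in rested and 13 to 39 in fresh cells (-1.08 ± 0.41 and -1.89 ± 0.42, adjusted p = 0.031 and 0.00078). Whether reads of Scd2 contribute to these counts was not tested.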
